A study of Mus musculus with 6 samples.

Results

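The mitochondrial carrier family, Slc25, was followed in skeletal muscle of 6 mice, 3 labelled wild type (WT) and 3 labelled transgenic (TG). The series is titled for SOCS-3, a suppressor of cytokine signalling. Carrier genes were taken by symbol, as every gene whose single platform symbol starts with Slc25a, leaving out the phosphate carrier gene Slc25a3 and the carnitine carrier gene Slc25a20. This gave 44 of the 19938 genes tested. For a gene with several probe sets, the one with the highest mean over the 6 arrays stood for it. The labels give neither the strain, age and sex of the mice nor which muscle was frozen. They also give neither what the transgene carries nor the promoter that drives it, and no allele or treatment shared by both groups is named. Each array carries its own subject number, so 1 array stands for 1 mouse.

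Mitochondrial carriers are small proteins of the inner mitochondrial membrane that exchange nucleotides, carboxylates, amino acids and cofactors between the matrix and the cytosol. In muscle the ADP/ATP carrier exports the ATP made by oxidative phosphorylation, and the aspartate-glutamate and oxoglutarate carriers form the malate-aspartate shuttle, which brings reducing equivalents of cytosolic NADH into the matrix. The calcium-regulated ATP-Mg/phosphate carriers set the size of the matrix adenine nucleotide pool. Other members move iron, citrate, glutathione, folate, coenzyme A and NAD. A few members are best known from other organs, such as Slc25a31 from male germ cells and Slc25a47 from liver.

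The arrays held 3 mice per group, and this number limits the precision of every value. Array medians of log2 expression ran from 5.98 to 6.04. The 10 genes chosen to define skeletal muscle, Ckm, Acta1 and Myh4 among them, ranged from 11.85 to 14.62 over all arrays, and the group means of their average level were 13.79 in TG and 13.82 in WT. Socs3 had a mean of 7.15 ± 0.09 on TG arrays and 7.41 ± 0.03 on WT arrays (SD, n = 3 per group), which does not check the labels because the transgene's sequence is not given. RNA came from whole tissue, in which fewer cells of a type and less RNA per cell cannot be told apart.

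Among these 44 carrier genes the one with an unadjusted p under 0.05 was Slc25a22, a glutamate carrier. Slc25a3 and Slc25a20, which also belong to the family, were left out by a rule made with their values known (-0.56 and 0.18), so the counts that follow are in part set by that choice. With both put back, 2 of 46 family genes were higher and 1 was lower at that threshold, and 7 did not overlap between groups. No member passed an adjusted p of 0.05 over all genes tested (limma, Benjamini-Hochberg), where 0.00502% of all genes did. At an unadjusted p under 0.05 there was 1 member with higher values in TG and 0 with lower values, where 1.96% and 4.79% of all genes lay. The groups did not overlap for 5 of 44 members, beside a background of 12.3%. Of these, 3 were higher in TG (background 4.52%) and 2 were lower (background 7.76%). Differences, TG minus WT on the log2 scale, ran from -0.47 to 0.29, and 22 were above 0 and 22 below. The median was 0.008, beside -0.016 over all genes and -0.040 over the 318 other Slc transporter genes. With the arrays set to a common median, 28 of 44 members were above 0 (63.6%) and the family's median was 0.048, while 58.4% of all genes were above 0 and their median was 0.024. Values near 0 therefore carry a sign that depends on the scaling.

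The size of change that these arrays could still hide was read from the 95% intervals. In 42 of 44 members (95.5%) the interval lay within a change of 1.5-fold in either direction, a log2 of 0.585, as it did in 94.4% of all genes. The interval of Slc25a24 reached 0.60, just past it, and that of Slc25a25 reached -1.27. For 39 members the difference itself was smaller than 0.15 (88.6%), beside 78.8% of all genes and 76.1% of the other Slc genes. The median within-group SD was 0.104 over the members and 0.112 over all genes.

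**Figure D1:**
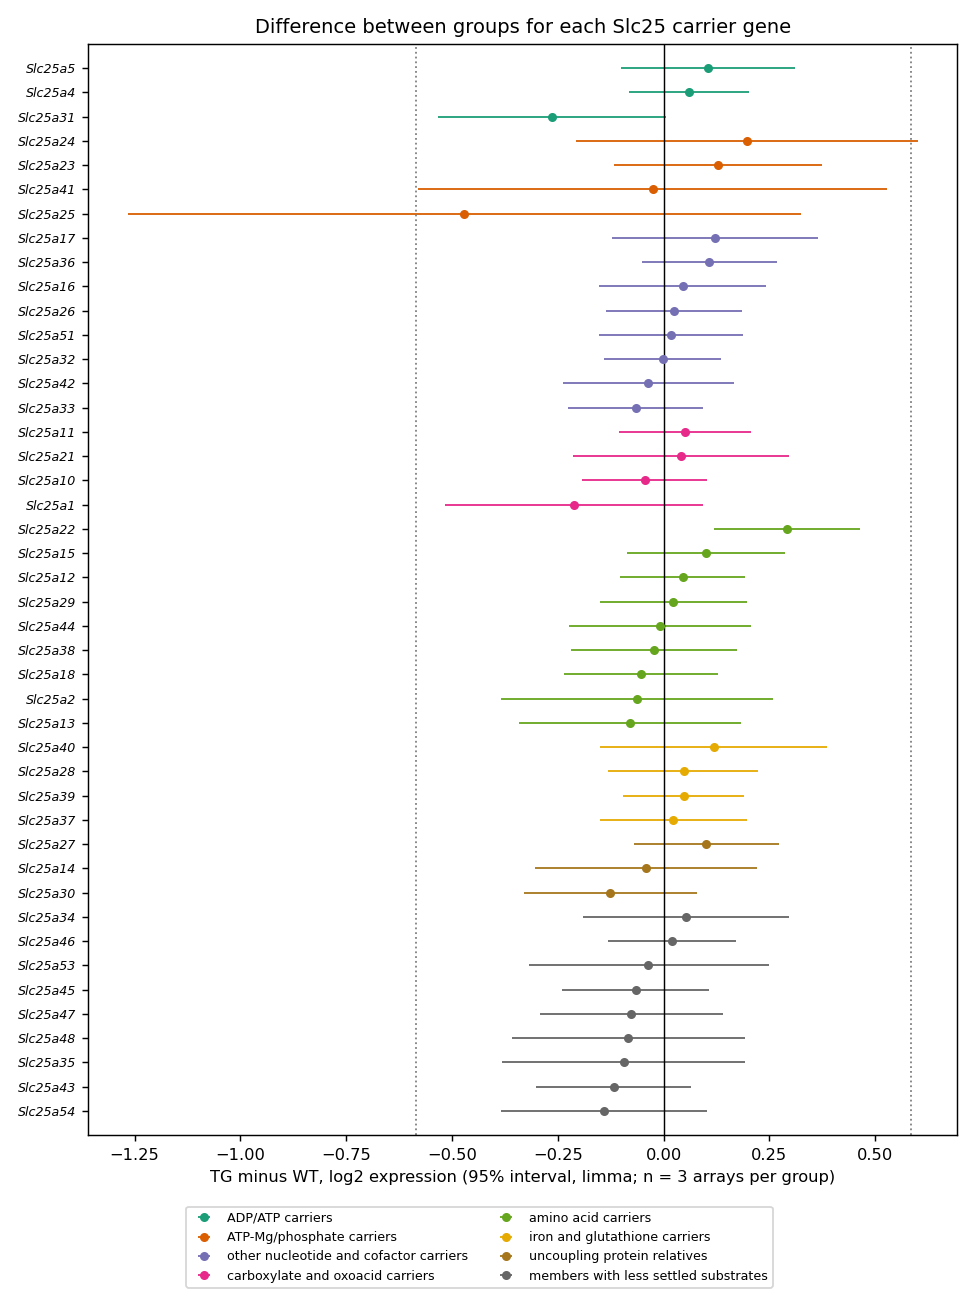
Difference between TG and WT (x axis, log2 expression) for each of the 44 carrier genes (y axis), grouped and coloured by role, with 95% limma intervals and dotted lines at a change of 1.5-fold. The interval of Slc25a22 lies to the right of 0, from 0.12 to 0.47, that of Slc25a31 ends at 0.01, and that of Slc25a25 is the widest, from -1.27 to 0.32.

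The cumulative plot sets the members beside both backgrounds. Below -0.10 lay 6 members (13.6%) and 23.8% of all genes, and above 0.10 lay 9 members (20.5%) and 13.8% of all genes, as deposited.

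**Figure D2:**
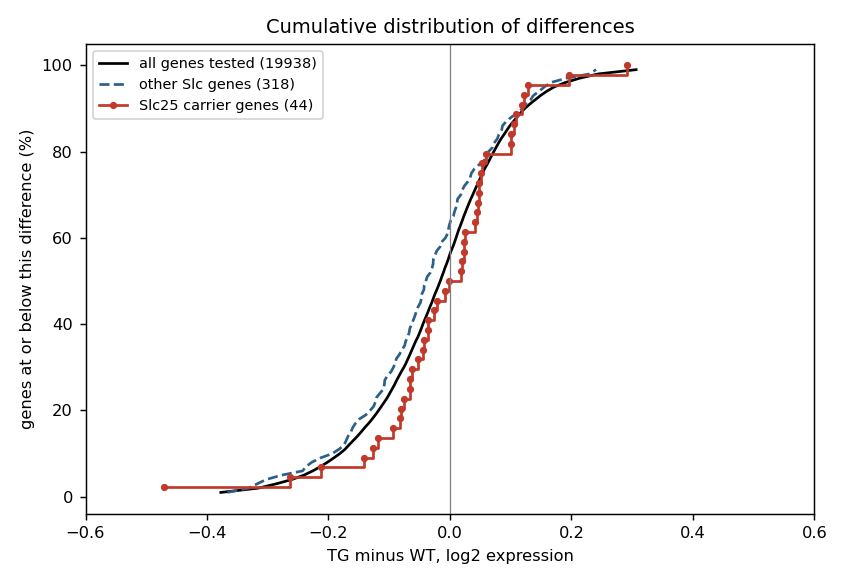
Percent of genes (y axis) at or below a given TG minus WT difference (x axis, log2 expression) for the 44 carrier genes (steps with points), the 318 other Slc genes (dashed) and all 19938 genes (solid). The curves for the 2 backgrounds are drawn from percentile 1 to percentile 99. Of the carrier genes 22 of 44 lie above 0, and of all genes 43.8% do.

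Amino acid carriers held the member with the smallest p. Slc25a22 encodes a mitochondrial glutamate carrier that moves glutamate together with a proton into the matrix. Its log2 expression was 8.35, 8.17 and 8.29 on the TG arrays and 7.95, 8.04 and 7.94 on the WT arrays. Each TG array lay above each WT array. Group means were 8.27 ± 0.09 for TG and 7.97 ± 0.05 for WT (SD, n = 3 per group). TG was higher by 0.29 (SE 0.07, 95% interval 0.12 to 0.47), or 1.22-fold. The unadjusted p was 0.00494, and 0.692% of all genes had a p at most as small, so the difference did not pass over all genes (limma, adjusted p = 0.660, and 0.382 to 0.912 over the alternatives). Without each array in turn it stayed between 0.25 and 0.34.

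The mean log2 levels of macrophage and fat cell markers did not overlap between the groups either, while those of the other marker lists did. As deposited, the mean log2 level of 7 measured macrophage markers was 6.28 to 6.66 in TG and 6.17 to 6.26 in WT. The list held 8 symbols, an older name of a measured marker among them. Of these genes 7 of 7 were above 0, beside 43.8% of all genes. The log2 of their summed level overlapped between groups, at 9.30 to 9.67 in TG and 9.24 to 9.37 in WT. For 7 measured adipocyte markers (of 8 listed) the mean was 6.69 to 6.86 in TG and 6.52 to 6.60 in WT, with 6 of 7 above 0. Their summed level overlapped too, at 11.21 to 11.38 in TG and 11.10 to 11.24 in WT. In each list 2 of 7 genes did not overlap between groups, beside 12.3% of all genes. This was not particular to these lists, with 3 of 10 skeletal muscle markers and 2 of 5 erythroid markers also not overlapping. It was 1 of 6 for slow fibre, 1 of 6 for nerve and Schwann, 0 of 11 for hepatocyte, 0 of 5 for brown fat and 0 of 5 for testis markers. Signal over background could not be assessed for the macrophage and adipocyte markers. Their part in the value of Slc25a22 was not tested.

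Slc25a18 encodes the second mitochondrial glutamate carrier, with the same transport reaction. It was at 5.74, 5.55 and 5.57 in TG and 5.65, 5.75 and 5.62 in WT, so the groups overlapped. The difference was -0.05 (SE 0.08, 95% interval -0.24 to 0.13; limma, adjusted p = 0.913), and 0.02 with quantile normalization. Taken within each array, the gap between the log2 values of the carriers was 2.65 ± 0.06 for TG and 2.30 ± 0.01 for WT (SD, n = 3 per group). The gap was larger in TG by 0.34 (two-sided exact permutation p = 0.1, the smallest that 3 against 3 allow). This gap was looked at because Slc25a22 had the smallest p, so the gap is a description of the pair and its p is not separate evidence. The array values of Slc25a18 are given for the same reason.

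The start regions of these paired genes are shown because their proteins share a transport reaction and Slc25a22 had the smallest p among the members. RefSeq (table of build GRCm38.p6) gives 3 start windows for Slc25a22 and 1 for Slc25a18, each from 250 bases before to 50 bases after a transcript start and printed 5′ to 3′ on the strand of the gene. Capitals mark the Sp1 motif GGGCGG and the CCAAT box, each searched on both strands, where Sp1 matches may overlap one another.
Slc25a22, chr7:141437825-141438124, minus strand: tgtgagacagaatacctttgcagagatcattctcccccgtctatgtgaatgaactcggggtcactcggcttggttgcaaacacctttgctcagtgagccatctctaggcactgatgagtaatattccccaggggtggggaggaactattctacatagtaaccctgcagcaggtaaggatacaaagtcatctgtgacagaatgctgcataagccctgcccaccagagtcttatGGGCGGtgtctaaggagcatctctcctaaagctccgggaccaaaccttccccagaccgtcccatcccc
Slc25a22, chr7:141435326-141435625, minus strand: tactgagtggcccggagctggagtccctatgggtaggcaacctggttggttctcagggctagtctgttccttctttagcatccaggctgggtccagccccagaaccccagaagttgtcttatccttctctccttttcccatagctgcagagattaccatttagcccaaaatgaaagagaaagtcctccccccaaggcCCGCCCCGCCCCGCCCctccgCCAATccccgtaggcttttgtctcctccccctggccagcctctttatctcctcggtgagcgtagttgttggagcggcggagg
Slc25a22, chr7:141434545-141434844, minus strand: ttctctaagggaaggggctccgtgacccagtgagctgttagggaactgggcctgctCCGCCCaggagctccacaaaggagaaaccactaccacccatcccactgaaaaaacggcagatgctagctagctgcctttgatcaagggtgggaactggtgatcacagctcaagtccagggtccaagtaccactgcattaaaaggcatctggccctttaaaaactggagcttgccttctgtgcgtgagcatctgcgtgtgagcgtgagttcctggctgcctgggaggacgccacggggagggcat
Slc25a18, chr6:120773518-120773817, plus strand: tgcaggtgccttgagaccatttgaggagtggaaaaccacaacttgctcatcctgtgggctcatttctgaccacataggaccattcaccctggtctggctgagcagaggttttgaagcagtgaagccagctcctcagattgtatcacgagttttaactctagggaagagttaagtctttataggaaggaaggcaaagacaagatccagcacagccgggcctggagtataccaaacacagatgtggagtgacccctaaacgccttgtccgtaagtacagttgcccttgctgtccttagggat
The middle Slc25a22 window holds 3 overlapping Sp1 matches followed by 1 CCAAT box, and each of the other Slc25a22 windows holds 1 Sp1 match. The Slc25a18 window holds 0 of both. Of the members, 34 had 1 or more such windows, 44 in all. The Sp1 motif lay in 36 of these 44 windows (81.8%), beside 35.7% of the 32851 windows in the table, which holds genes of every kind, and the CCAAT box in 22 of 44, beside 37.4%. The STAT motif TTCNNNGAA lay in 2 member windows, of Slc25a36 and Slc25a54 (4.55%, beside 8.30%). The estrogen-related receptor motif AAGGTCA lay in 1 window, of Slc25a34 (2.27%, beside 4.72%), and the cyclic AMP response element TGACGTCA in 2, of Slc25a25 and Slc25a36 (4.55%, beside 1.79%). These are matches of letters and do not show that a factor binds.

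Neither aspartate-glutamate carrier passed the test. Slc25a12, the calcium-binding carrier known as aralar and the main form in muscle, was at 12.73, 12.76 and 12.74 in TG and 12.72, 12.64 and 12.73 in WT. The groups overlapped, with a difference of 0.05 (95% interval -0.10 to 0.19; limma, adjusted p = 0.905) that was 0.02 without WT array 2. Slc25a13, known as citrin and abundant in liver, was at 5.23, 5.55 and 5.199 in TG and 5.42, 5.52 and 5.28 in WT. Its difference was -0.08 (95% interval -0.34 to 0.18; limma, adjusted p = 0.904), and again the groups overlapped. It was -0.19 without TG array 2 and -0.02 without TG array 3. Hepatocyte transcripts varied widely between these arrays, with a mean log2 level of 11 measured markers (of 13 listed) of 6.28, 7.31 and 5.57 in TG and 6.46, 6.89 and 7.04 in WT. Their part in the citrin values was not tested.

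The remaining amino acid carriers differed by at most 0.10. Slc25a15, an ornithine carrier of the urea cycle, was at 0.10, and Slc25a2, its close relative, at -0.06. Slc25a29, which carries basic amino acids, was at 0.02, Slc25a38, a glycine carrier needed for haem synthesis, at -0.02, and Slc25a44, a carrier of branched-chain amino acids, at -0.01. In all, 4 of 9 amino acid carriers were above 0, 5 of 9 with quantile normalization and 6 of 9 with a common array median.

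The ADP/ATP carriers gave 3 different patterns, each small. Slc25a4 encodes the form that dominates in heart and skeletal muscle. It was at 14.19, 14.17 and 14.14 in TG and 14.13, 14.08 and 14.11 in WT. Every TG array lay above every WT array, although the nearest arrays of the groups were only 0.010 apart. The means were 14.17 ± 0.02 and 14.11 ± 0.03 (SD, n = 3 per group), which differ by 0.06 (SE 0.06, 95% interval -0.08 to 0.20), or 1.04-fold (limma, adjusted p = 0.867).

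Slc25a5 encodes the form found in most dividing cells. It was at 10.12, 10.28 and 9.99 in TG and 9.98, 10.09 and 10.01 in WT, with overlapping groups and a difference of 0.10 (SE 0.09; limma, adjusted p = 0.834) that was 0.03 without TG array 2 and 0.17 without TG array 3. Its other probe sets gave 0.13 and 0.09. All 3 carry the same transcript accessions in the annotation, and signal from near-identical copies of this gene cannot be kept apart on an array, so the value is uncertain.

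Slc25a31 encodes the carrier of male germ cells. It was at 2.99, 3.37 and 3.41 in TG and 3.56, 3.48 and 3.52 in WT, with every TG array below every WT array and TG array 1 the lowest. The difference was -0.26 (SE 0.12, 95% interval -0.53 to 0.01; unadjusted p = 0.0538; limma, adjusted p = 0.739), and it was -0.13 without TG array 1. Germ cell transcripts Tnp1, Tnp2, Prm1, Prm2 and Ddx4 had a mean level of 4.92 in TG and 5.01 in WT, with overlapping arrays. Whether the Slc25a31 signal was above background could not be read from the deposited values.

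**Figure D3:**
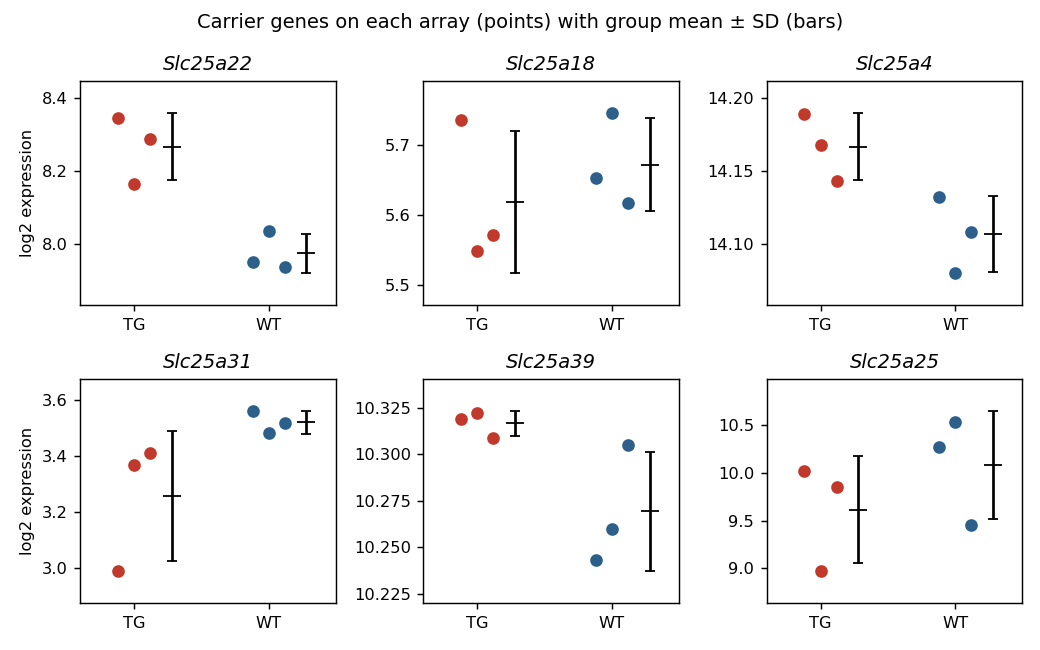
Log2 expression (y axis, a separate scale for each gene that does not start at 0) of 6 carrier genes on each TG and WT array (points), with the group mean ± SD beside them (n = 3). Slc25a22, Slc25a4 and Slc25a39 have all TG points above all WT points, Slc25a31 has them all below, and Slc25a18 and Slc25a25 overlap.

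ATP-Mg/phosphate carriers had the widest spread within groups, with a median SD of 0.33. Slc25a25 encodes a calcium-regulated form that is abundant in skeletal muscle. It was at 10.02, 8.97 and 9.85 in TG and 10.27, 10.53 and 9.45 in WT, and TG array 2 and WT array 3 were low within their groups. The means were 9.61 ± 0.56 for TG and 10.08 ± 0.56 for WT (SD, n = 3 per group). The difference of -0.47 (SE 0.34, 95% interval -1.27 to 0.32) was smaller than the spread within either group (limma, adjusted p = 0.811). It was -0.15 without TG array 2 and -0.79 without WT array 3, the latter at an unadjusted p of 0.0355 (limma, adjusted p = 0.937). Only 0.296% of all genes had a within-group SD as large as its 0.563.

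Slc25a24, another calcium-regulated form, was at 6.64, 6.93 and 6.42 in TG and 6.70, 6.14 and 6.55 in WT, a difference of 0.20 (SE 0.17). It was 0.04 without WT array 2, 0.06 without TG array 2 and 0.32 without TG array 3 or without WT array 1. Slc25a23, the third calcium-regulated form, was at 7.80, 7.76 and 7.98 in TG and 7.76, 7.53 and 7.87 in WT, a difference of 0.13 (SE 0.10) that ran from 0.04 (without WT array 2) to 0.20 (without WT array 3). Both overlapped between groups. Slc25a41, a short relative without the calcium-binding part, differed by -0.03, and its TG arrays ran from 4.61 to 5.68, wider than its WT arrays at 5.12 to 5.33. The within-group SD of Slc25a24 was matched or exceeded by 4.29% of genes.

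Carriers of other nucleotides and cofactors were the steadiest role group, with a median within-group SD of 0.0655. Their 8 differences ran from -0.07 to 0.12, 5 of them above 0, 4 with quantile normalization and 7 with a common array median. Slc25a17, a peroxisomal carrier of coenzyme A and related cofactors, was at 8.48, 8.80 and 8.54 in TG and 8.37, 8.47 and 8.61 in WT, a difference of 0.12 (SE 0.10) with overlapping groups. It was 0.03 without TG array 2 and 0.18 without WT array 3. Slc25a36 and Slc25a33, carriers of pyrimidine nucleotides, stood at 0.11 and -0.07. The second Slc25a36 probe set gave 0.08. Slc25a42, which imports coenzyme A, was at -0.04, and Slc25a16, linked to coenzyme A as well, at 0.05. Slc25a26, which imports S-adenosylmethionine, was at 0.02, and Slc25a51, which imports NAD, at 0.02. Slc25a32, which carries folate and flavin, was nearly the same on every array, between 8.21 and 8.23, and differed by -0.002 (95% interval -0.14 to 0.14).

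The carboxylate carriers were at or near 0 apart from the citrate carrier. Slc25a1 exports citrate for lipid synthesis. It was at 6.41, 6.84 and 6.80 in TG and 6.75, 6.91 and 7.03 in WT. TG array 1 was the lowest and the groups overlapped, with a difference of -0.21 (SE 0.13, 95% interval -0.52 to 0.09; limma, adjusted p = 0.796) that was -0.07 without TG array 1. Slc25a11, the oxoglutarate carrier of the malate-aspartate shuttle, differed by 0.05 (95% interval -0.11 to 0.21). Slc25a10, the dicarboxylate carrier, was at -0.04, and Slc25a21, a carrier of oxoadipate, at 0.04.

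Iron and glutathione carriers had values above 0 in 4 of 4 genes as deposited, with quantile normalization and with a common array median, all by at most 0.12 as deposited. Of all genes 43.8%, 49.7% and 58.4% were above 0 under these settings. The signs of Slc25a37 and Slc25a40 also depended on single WT arrays. Slc25a37 and Slc25a28 encode the mitoferrins, which bring iron into the matrix for haem and iron-sulphur clusters. Slc25a28, the form of non-erythroid tissue, was at 9.17, 9.36 and 9.36 in TG and 9.22, 9.25 and 9.27 in WT, a difference of 0.05 (SE 0.08) that was 0.11 without TG array 1 and 0.01 without TG array 3. Slc25a37, the erythroid form, was at 7.15, 7.02 and 7.15 in TG and 7.05, 7.17 and 7.02 in WT. Its difference of 0.02 (SE 0.08) was -0.007 without WT array 3. Both mitoferrin genes overlapped between groups.

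Slc25a39 and Slc25a40 are linked to the import of glutathione. Slc25a39 was at 10.319, 10.322 and 10.309 in TG and 10.243, 10.260 and 10.305 in WT, so the groups stayed apart by only 0.004. Its difference was 0.05 (SE 0.06; limma, adjusted p = 0.893). Slc25a40 was at 7.38, 7.26 and 7.45 in TG and 7.37, 7.00 and 7.36 in WT, a difference of 0.12 (SE 0.11) with overlapping groups. WT array 2 was its lowest array, without which the difference was -0.005. Its second probe set gave 0.02.

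Relatives of the uncoupling proteins did not pass either. Slc25a30, known from kidney, was at 7.00, 7.22 and 6.96 in TG and 7.15, 7.27 and 7.14 in WT, a difference of -0.13 (SE 0.09) with overlapping groups. It was -0.08 without TG array 3 and -0.20 without TG array 2. Slc25a14 and Slc25a27, both best known from brain, were at -0.04 and 0.10.

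Among members whose substrates are less settled, 2 of 9 were above 0 as deposited, and 3 of 9 with either of the other scalings. Slc25a43 was at 5.735, 5.912 and 5.961 in TG and 5.962, 6.016 and 5.985 in WT, so the groups all but met. Its difference was -0.12 (SE 0.08; limma, adjusted p = 0.802), and -0.05 without TG array 1. Slc25a54 was at 3.28, 3.10 and 3.34 in TG and 3.31, 3.26 and 3.56 in WT, a difference of -0.14 (SE 0.10) with overlapping groups that was -0.05 without WT array 3 and -0.07 without TG array 2. Slc25a46, an outer membrane member involved in mitochondrial shape, was at 0.02. Slc25a47, the liver member, was at 6.85, 7.10 and 7.04 in TG and 7.19, 7.03 and 6.99 in WT, a difference of -0.08 with overlapping groups. The hepatocyte markers given above were highest on TG array 2 and lowest on TG array 3, and their part in these values was not tested. Slc25a34, Slc25a35, Slc25a45, Slc25a48 and Slc25a53 ranged from -0.09 to 0.05.

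**Figure D4:**
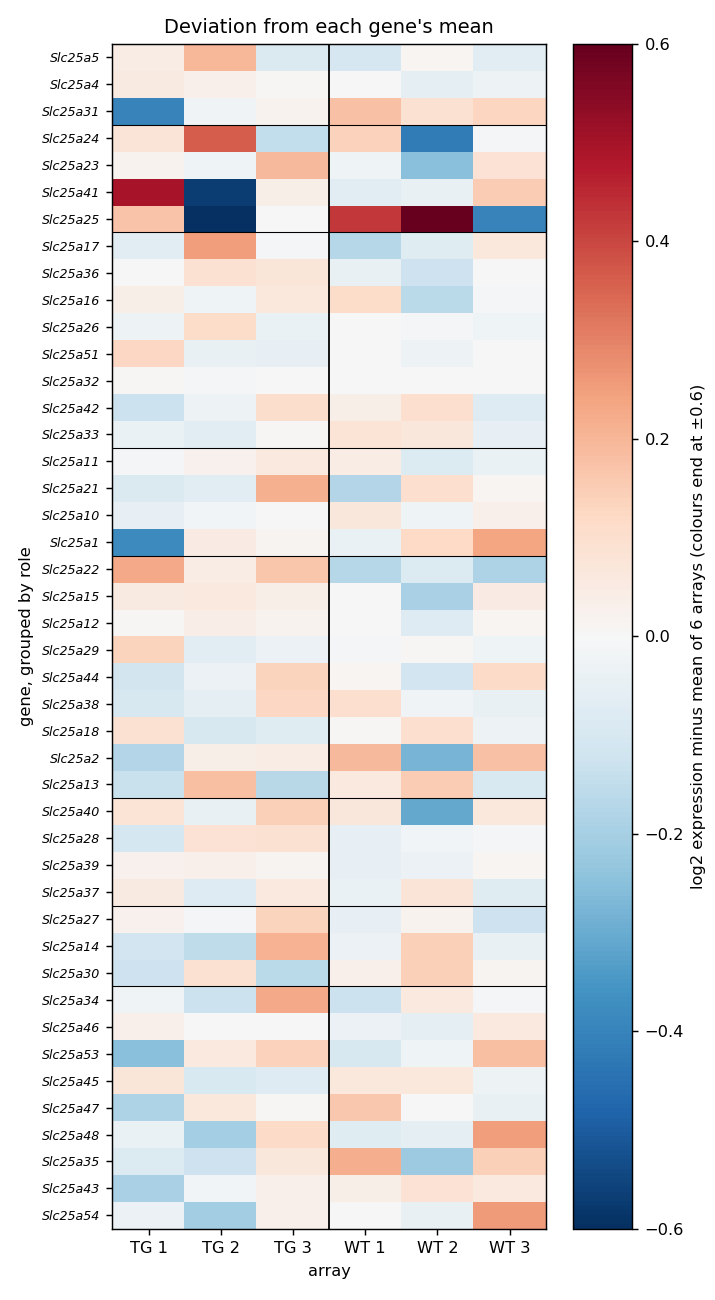
Log2 expression of each of the 44 carrier genes (rows, grouped by role and sorted by difference within a role) on each array (columns) minus the gene's mean over the 6 arrays, red above and blue below, with colours ending at ±0.6. Slc25a25, Slc25a41 and Slc25a24 have the strongest colours, and Slc25a22 is red on all TG arrays and blue on all WT arrays.

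The median deviation of the members from their own means was -0.014, -0.017 and 0.032 on TG arrays 1 to 3 and 0.002, -0.024 and 0.000 on WT arrays 1 to 3. Over all genes it was -0.020, -0.006 and 0.003 on the TG arrays and 0.001, -0.006 and 0.029 on the WT arrays. WT array 2 was the lowest array for 13 members and TG array 3 the highest for 11.

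Other genes of mitochondrial transport were read from the same fit. A list of 10 symbols for relatives outside the symbol rule included older names, some of them of genes already counted as members. Of these symbols 6 were measured, and 3 had an unadjusted p under 0.05 (limma), where 6.75% of all genes did. These were Ucp3 at 0.21, Slc25a20 at 0.18 and Slc25a3 at -0.56, with adjusted p of 0.713, 0.713 and 0.221 (limma), so 0 of 6 passed. Slc25a20 and Slc25a3 are in this list because they were left out of the family with their values known, so nothing is read from the count. A list for other mitochondrial transport covered voltage-dependent anion channels, pyruvate carrier, carnitine palmitoyltransferases, calcium uniporter, sideroflexins and protein import. It held 35 symbols, older names of the same genes among them, and 29 were measured. None of the 29 had an unadjusted p under 0.05 or passed over all genes (limma), and the differences ran from -0.07 to 0.23. As deposited, 21 were above 0 (72.4%, beside 43.8% of all genes), with a median difference of 0.025. With the arrays set to a common median, 58.4% of all genes were above 0. The list was not read under that scaling, so its share above 0 may depend on it. The groups did not overlap for 4 of the 29, beside 12.3% of all genes. Sfxn1, a mitochondrial serine transporter, stood at 0.23 (SE 0.11), Cpt1a, the liver-type carnitine palmitoyltransferase, at 0.11, Vdac1 at 0.02 and the uniporter gene Mcu at -0.06.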

How the data were processed

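Total RNA of frozen mouse muscle was hybridised to Affymetrix MoGene arrays, per the labels' protocols and the series' design text. The authors deposited 35557 probe sets as log2 values (1.41 to 15.1, the scale read from the values); how they were summarized and normalized is not stated there. Values were used as deposited (array medians within 0.0571). All 6 columns were used and 0 left out; none duplicated another, and the labels name no batch beyond 1 common date.

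The platform annotation gave 21789 probe sets 1 symbol, 1621 several and 12147 none, and so 19938 genes; 44 members matched RefSeq by gene identifier. TG and WT (3 arrays each, numbered in deposit order) were compared with limma 3.58.1 in R 4.3.3 (lmFit, eBayes, two-sided, Benjamini-Hochberg over all genes, threshold 0.05). The fit was tested on simulated data. Figures used matplotlib 3.10.9.

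The members and lists were chosen with earlier results of these data known, and the 1.5-fold interval, the promoter motifs and the glutamate carrier gap after seeing the values. Array values are given for members with an unadjusted p under 0.05 or no overlap, the 5 largest differences per direction, and the ADP/ATP, aspartate-glutamate and iron carriers; those of Slc25a18 and Slc25a47 were added after seeing the values. As alternatives, each array was left out, eBayes was run with a trend or robustly, arrays were weighted, set to a common median or quantile normalized, only genes above the median level were kept, every probe set (named or all) was tested, probe sets were averaged, and calls were made at an unadjusted p under 0.01 with a 1.5-fold change.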

Additional observations from a re-analysis of the deposited data

How the results depend on the processing

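No member passed an adjusted p of 0.05 under any alternative run (limma), and 0 of 44 passed an unadjusted p under 0.01 with a 1.5-fold change. The count of members higher at an unadjusted p under 0.05 was 1, Slc25a22, under each alternative. The count of lower ones was 0 with all arrays and 0 to 2 without single arrays, among them Slc25a30 and Slc25a31 without TG array 2 and Slc25a25 without WT array 3. The family's median, 0.008, was 0.035 among the 32 members above the median level, 0.048 with a common array median and -0.023 to 0.022 without single arrays. Of 19 members (the 18 of the naming rule and Slc25a18), 16 kept their sign in 14 or 15 alternatives each. Slc25a18 was at 0.017 with quantile normalization, and without single arrays Slc25a40 ran from -0.005 (without WT array 2) to 0.181 and Slc25a37 from -0.007 (without WT array 3) to 0.067. The causes were not tested. Signal over background could not be assessed, so values of low members such as Slc25a31 and Slc25a54 have no stated floor. No paired analysis was possible because the labels give no replicate numbers.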

Other observations

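The low values of Slc25a25 on TG array 2 and WT array 3 were set, after they were seen, beside genes from the fixed marker lists. Ppargc1a, which encodes a coactivator of mitochondrial genes and was picked from the brown fat list for its values, was at 9.50, 10.41 and 9.50 on the TG arrays and 9.15, 9.34 and 9.55 on the WT arrays, with its highest value in each group on the array where Slc25a25 was lowest. Elovl3 and Dio2 of the same list also had their highest value in each group on TG array 2 and WT array 3. Ucp1 and Cidea went differently on TG array 2, at 4.61 and 5.20, their lowest TG values. On WT array 3 Cidea had its highest WT value and Ucp1 did not. The mean level of the hepatocyte list was also highest within each group on these arrays, at 7.31 on TG array 2 and 7.04 on WT array 3. So were those of the erythroid list (5.74 and 5.88) and of the whole brown fat list (6.15 and 6.19). The skeletal muscle, slow fibre, adipocyte, macrophage, nerve and Schwann, and testis lists did not have this pattern. These are 6 arrays looked at after the fact, and no relation was tested.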
